A study of Rattus norvegicus with 10 samples.

Results

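Islet RNA signal of 10 genes that supply cysteine, build and recycle glutathione, or are classical targets of the transcription factor Nrf2 was followed across 5 groups of rats. The genes are Cbs, Cth, Slc7a11, Gclc, Gclm, Gss, Gsr, Txnrd1, Nqo1 and Hmox1. They were taken as all probe sets that the array annotation assigns to 1 of these symbols alone, which gave 12 probe sets of the 31099 on the array, or 10 of 14217 genes. Gclc and Txnrd1 have 2 probe sets each, and a gene is represented by its brighter one.

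The samples were pancreatic islets of rats 40 days old, with 2 Affymetrix arrays per group and 10 in all. DR+/+ and JB are diabetes-inducible groups without the lyp mutation, and JBlyp/lyp is diabetes prone and homozygous for it. F344 and F344lyp are healthy control strains, the first without lyp and the second a strain named for it. The series' design text counts DR, JB and JBlyp/lyp as BB (BioBreeding) rats and F344 as non-BB, and writes the last group as F344lyp/lyp. JB and JBlyp/lyp are treated as a pair on a common background because of how they are named, although the growth protocol derives both DR+/+ and JBlyp/lyp rats from DRlyp/+ breeders and does not give the origin of JB. The rats were kept at 2 sites, and which group came from which is not stated. Per the labels' protocols, rats were fasted for 12 h and left out if blood glucose exceeded 250 mg/dl. Only males are named for DR+/+, F344 and F344lyp, with no mention of the sex of the JB groups, and islets were freed with collagenase and purified on a density gradient. The labels do not say whether an array holds 1 animal or a pool. Values below are log2 RMA intensities, a log-scale brightness per probe set, and differences are differences of group means on that scale.

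Cysteine limits how much glutathione a cell can make. Cells import it as cystine through the exchanger encoded by Slc7a11, or make it from methionine by transsulfuration, in which Cbs joins homocysteine and serine to cystathionine and Cth splits cystathionine to release cysteine. Glutamate cysteine ligase, a dimer of the catalytic subunit Gclc and the modifier Gclm, and then glutathione synthetase (Gss) build the tripeptide, and glutathione reductase (Gsr) returns its oxidised form. Txnrd1 recycles thioredoxin, Nqo1 reduces quinones, and Hmox1 degrades haem. Under oxidative stress Nrf2 escapes its inhibitor Keap1 and binds antioxidant response elements near several of these genes. Slc7a11 and transsulfuration genes are also known targets of the amino acid stress factor Atf4.

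The sequences before the starts of these genes show where such elements could be looked for. Of the 10 genes, 8 matched an entry of the RefSeq promoter table (assembly GRCr8), with 9 starts in all. Each entry of 300 bases was searched on both strands for the core of the antioxidant response element, TGACNNNGC, and for the amino acid response element, TGATGNAA. The first is in 12.1% of all 33469 promoters and the second in 3.98%. The core was found for Gclm and for 1 of the 2 Txnrd1 starts, in both cases on the opposite strand and as printed here in capitals, at -172 to -164 and at -78 to -70 from the start. The second motif was found in none of the 9 member promoters. A match is a string of letters and not a shown binding site, and no match says only that the letters are not in this window. Printed are the 250 bases before the start of the 2 genes with a match and of the transsulfuration pair, whose signal varied most. They are Cth (chr2:249661067-249661316, minus strand), Cbs (chr20:9733926-9734175, minus strand), Gclm (chr2:213031885-213032134, plus strand) and the Txnrd1 start with the match (chr7:22755905-22756154, minus strand), each written 5′ to 3′ along its gene.
Cth: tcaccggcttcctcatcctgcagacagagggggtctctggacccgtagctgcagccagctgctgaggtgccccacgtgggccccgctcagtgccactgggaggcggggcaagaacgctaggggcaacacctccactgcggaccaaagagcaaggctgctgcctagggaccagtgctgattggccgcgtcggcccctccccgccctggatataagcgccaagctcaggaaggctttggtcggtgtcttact
Cbs: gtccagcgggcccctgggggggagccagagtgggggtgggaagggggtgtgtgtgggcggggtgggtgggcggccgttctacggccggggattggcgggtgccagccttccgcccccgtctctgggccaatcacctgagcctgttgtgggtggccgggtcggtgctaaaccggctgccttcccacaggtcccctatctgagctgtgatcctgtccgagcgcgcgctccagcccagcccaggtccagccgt
Gclm: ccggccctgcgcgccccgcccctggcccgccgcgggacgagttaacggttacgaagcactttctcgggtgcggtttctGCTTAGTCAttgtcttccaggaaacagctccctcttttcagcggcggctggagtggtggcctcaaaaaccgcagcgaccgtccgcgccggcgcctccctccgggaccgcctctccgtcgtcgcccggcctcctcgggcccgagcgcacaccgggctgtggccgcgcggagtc
Txnrd1: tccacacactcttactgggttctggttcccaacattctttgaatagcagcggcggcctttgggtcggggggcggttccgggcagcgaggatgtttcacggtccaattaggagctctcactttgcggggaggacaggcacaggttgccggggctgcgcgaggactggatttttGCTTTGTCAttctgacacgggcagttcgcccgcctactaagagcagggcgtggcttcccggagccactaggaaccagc

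Marker signal of several cell types differed between the groups, except that 0 markers of any list were called for lyp in JB. Ins1 and Ins2, the insulin genes that define beta cells, stood at or above the 99.94 percentile of probe sets on every array. Acinar markers, which belong to the exocrine pancreas, were bright throughout. The log2 of their summed intensity (28 of 32 listed genes measured) was 14.93 to 14.95 in DR+/+, 16.03 to 16.37 in JB, 15.72 to 16.38 in JBlyp/lyp, 17.36 to 17.55 in F344 and 17.87 to 18.10 in F344lyp. Between BB and F344 groups 27 of the 28 fell and 0 rose, beside 24.6% of all genes lower and 13.3% higher. The DR+/+ arrays stood apart: against JB, 11 of 12 beta cell markers were lower and 12 of 16 stellate and fibroblast markers higher. Of all genes, 18.4% were lower and 15.5% higher in that comparison. The 3′ minus 5′ signal of Gapdh, a log2 measure of RNA or labelling quality, was 2.75 to 3.71 in the BB-related arrays and 2.19 to 2.43 in the F344 and F344lyp arrays. That of beta-actin did not separate these sides. It was 2.57 to 2.86 in DR+/+, 3.40 to 4.17 in JB, 3.30 to 3.43 in JBlyp/lyp, 2.95 to 3.06 in F344 and 2.72 to 2.77 in F344lyp. T cell markers, low in lyp rats, had log2 sums of 8.89 to 8.98 in JBlyp/lyp against 9.23 to 9.34 in JB, and 9.16 to 9.22 in F344lyp against 9.86 to 9.88 in F344. Gimap5, the gene mutated in lyp rats, lay at 5.65 to 6.02 in the lyp arrays and 5.95 to 8.41 in the others, and its lyp difference passed the threshold in neither background (adjusted p = 0.785 in JB and 0.158 in F344, limma).

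The series asks whether BB islets are less able to deal with oxidative stress. For the mean of the 3 BB-related groups against the mean of F344 and F344lyp, 5 of the 10 genes fell and 1 rose at an adjusted p under 0.05, against 24.6% of all genes lower and 13.3% higher. The genes that fell were Cth, Cbs, Hmox1, Nqo1 and Slc7a11, and Gclc rose. The median difference of the 10 genes was -0.33, beside -0.04 over all 14217 genes. The call rate was high for genes of any kind, so the count is read beside it and the sizes carry the description. The comparison does not take in how far the groups within BB, or within F344, lie from each other. With the group as a random block, Cth and Cbs remained below the threshold (adjusted p = 0.00668 and 0.0186), while Hmox1 (0.0693), Nqo1 (0.311), Gclc (0.366) and Slc7a11 (0.582) did not. That fit uses 1 correlation for all probe sets (0.49). For Cth the SD was 2.32 between group means and 0.17 within groups, and for Cbs 1.39 and 0.23. The SD between all 5 group means includes the difference under test, which the block does not model. Within the F344 side alone, the means of F344lyp and F344 lay 2.83 apart for Cth and 1.86 for Cbs. For both genes the block therefore takes in only part of the spread between groups. With the Gapdh 3′ minus 5′ signal as a covariate, 0 of the 10 passed in this comparison (Cth at -3.90, adjusted p = 0.0859), and 8 of the 31042 probe sets did. The Gapdh signal runs higher in the BB-related groups throughout, unlike that of beta-actin, so that fit leaves little of the comparison to test. The part of RNA quality was not tested further.

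**Figure D1:**
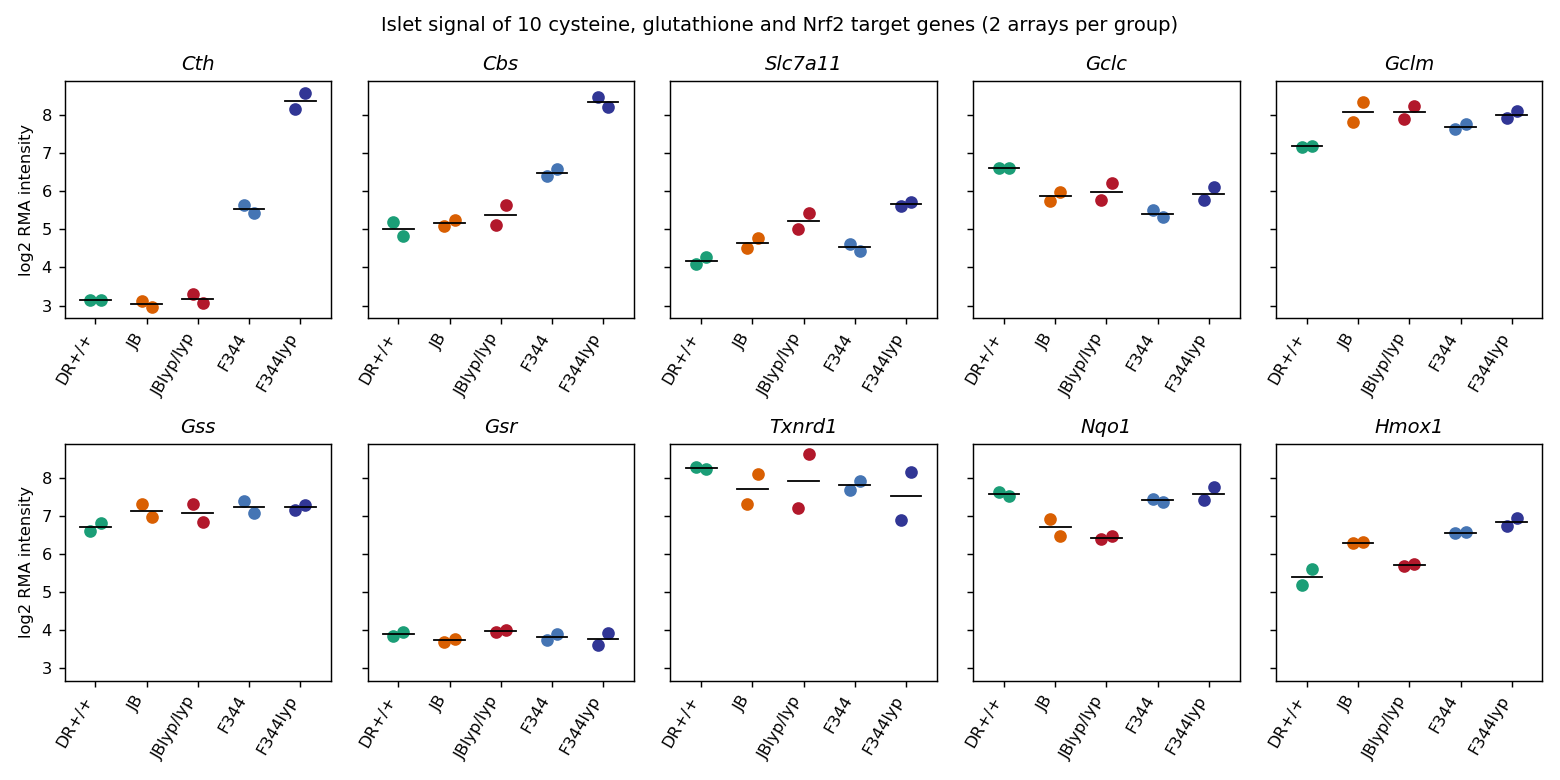
Each panel plots the log2 RMA intensity of 1 gene (y axis) in the 5 groups (x axis), 1 point per array and a black line at the mean of the 2 arrays. Cth and Cbs step from the BB-related groups up to F344 and again up to F344lyp, while Gsr stays between 3.61 and 4.0 on all arrays.

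The transsulfuration genes had the widest range of the 10. Cth stood at 3.14 and 3.15 in DR+/+, 3.12 and 2.96 in JB, 3.29 and 3.06 in JBlyp/lyp, 5.64 and 5.42 in F344, and 8.15 and 8.57 in F344lyp. All 6 BB-related arrays were low, both F344 arrays intermediate and both F344lyp arrays high, with no overlap between these 3 levels. The BB-related arrays lay below the rest in 10.6% of all genes, and F344lyp above F344 in 34.3%. The BB-related Cth values lay between the 4.25 and 10.92 percentile of probe sets on their arrays, the F344 values between 49.81 and 52.94, and the F344lyp values between 84.78 and 87.33. No detection call was used, and a signal this near the bottom of an array cannot be told from its floor, so differences against the BB-related groups may be understated and no order among those groups is read.

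Cth was lower by 2.49 in JB than in F344 (log2 difference -2.49, SE 0.17, adjusted p = 5.28e-05) and by 5.19 in JBlyp/lyp than in F344lyp (-5.19, SE 0.17, adjusted p = 3.39e-07). These comparisons share no array. DR+/+ also lay below F344 (-2.39, SE 0.17, adjusted p = 1.02e-05), in a comparison that shares the F344 arrays with the first. With the BB-related groups near the floor, the folds of 5.62 for JB, 5.23 for DR+/+ and 36.4 for JBlyp/lyp may be too low. The fold for JBlyp/lyp is the largest because it is taken against F344lyp, which lay above F344.

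Cbs showed the same 3 levels, at a higher signal than Cth in the BB-related groups and in F344. It stood at 5.20 and 4.84 in DR+/+, 5.09 and 5.24 in JB, 5.10 and 5.63 in JBlyp/lyp, 6.40 and 6.58 in F344, and 8.48 and 8.22 in F344lyp. The BB-related groups overlapped each other. All 6 of their arrays lay below the F344 and F344lyp arrays, as in 10.6% of all genes. The F344 arrays lay below those of F344lyp, as in 34.3%. The difference was -1.32 for JB against F344 (SE 0.20, adjusted p = 0.0035), -2.98 for JBlyp/lyp against F344lyp (SE 0.20, adjusted p = 2.33e-05) and -1.47 for DR+/+ against F344 (SE 0.20, adjusted p = 0.000431). The BB-related arrays lay at the 41.03 to 53.44 percentile, well off the floor, unlike Cth.

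Over the 10 arrays the log2 signals of Cth and Cbs had a Pearson correlation of 0.98 (0.92 over the 8 arrays without F344lyp). This describes group steps that both share, since their deviations from the group means went opposite ways (r = -0.74 over the 10 arrays, where the 2 arrays of a group are mirror images). The acinar marker sum was also lowest in the BB-related groups and highest in F344lyp. Against JB, 20 of 28 acinar markers were lower in DR+/+ and 1 higher, where 18.4% of all genes were lower and 15.5% higher. The Cbs difference in that comparison was -0.15 (SE 0.20, adjusted p = 0.655), and for Cth both groups were near the floor. The part of acinar RNA in the Cth and Cbs differences was not tested, and in bulk RNA fewer cells of a type and less RNA per cell cannot be told apart.

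**Figure D2:**
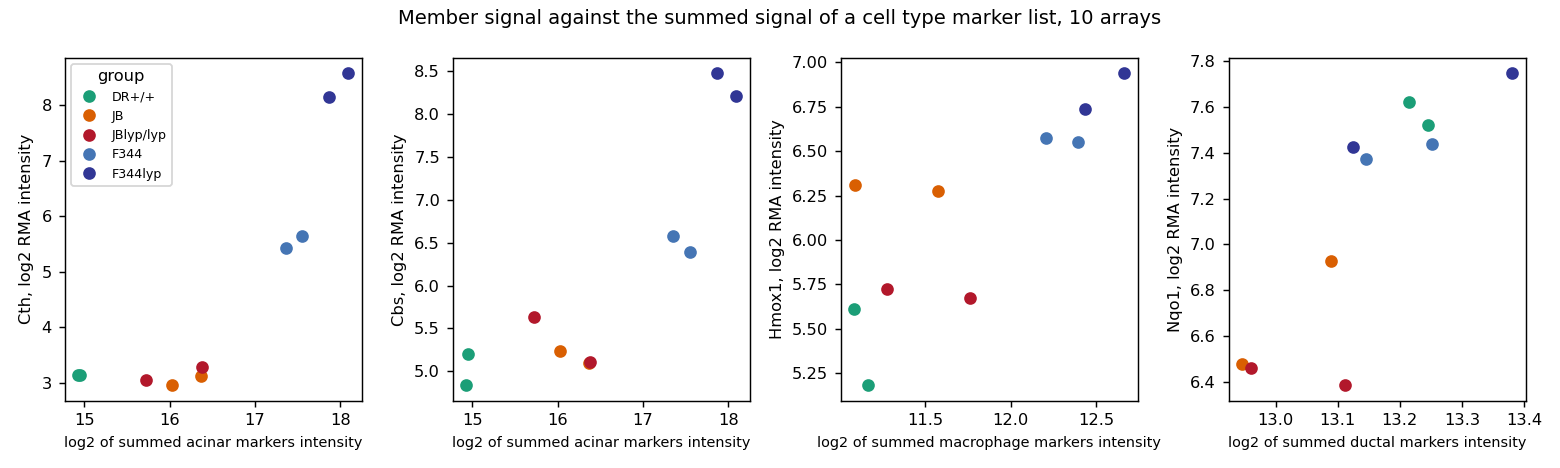
Each panel plots the log2 RMA intensity of 1 gene (y axis) against the log2 of the summed intensity of a cell type marker list (x axis), 1 point per array, coloured by group. Cth and Cbs are high in the F344lyp arrays, where the acinar sum reaches 18.10, and Hmox1 is highest in the F344lyp arrays, where the macrophage sum reaches 12.66.

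Slc7a11, the cystine importer, ordered the groups differently. It stood at 4.09 and 4.27 in DR+/+, 4.50 and 4.79 in JB, 5.00 and 5.42 in JBlyp/lyp, 4.61 and 4.44 in F344, and 5.62 and 5.72 in F344lyp. DR+/+, JB and F344 lay at the 26.69 to 40.12 percentile of their arrays, and JBlyp/lyp and F344lyp at 43.87 to 53.55. The signal is low in the first 3 groups, so differences may be understated and the order among them is uncertain. JB and F344 overlapped, and each group with lyp lay above its partner without it. Its lower value over the BB-related groups (-0.42, SE 0.11, adjusted p = 0.0187) rested on F344lyp and DR+/+. Without the F344lyp arrays the difference turned to 0.15 (adjusted p = 0.555), and without DR+/+ it was -0.17 (adjusted p = 0.391). The call also ended without F344 replicate 1 (adjusted p = 0.0905) or F344lyp replicate 2 (0.0723). Within a genotype the background difference passed in neither case, with 0.12 (SE 0.18) for JB against F344 and -0.46 (SE 0.18, adjusted p = 0.123) for JBlyp/lyp against F344lyp.

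Of the genes that build glutathione, Gclc, the catalytic subunit, was brightest in DR+/+. Its brighter probe set gave 6.62 and 6.61 in DR+/+, 5.75 and 5.98 in JB, 5.77 and 6.22 in JBlyp/lyp, 5.50 and 5.33 in F344, and 5.77 and 6.10 in F344lyp. DR+/+ lay above every other array and F344 below every other array, and the remaining 3 groups overlapped. No share of all genes was counted for this pattern. Gclc was higher in DR+/+ than in F344 (1.20, SE 0.19, adjusted p = 0.000855) and than in JB (0.75, SE 0.19, adjusted p = 0.0134). The second call ended without either DR+/+ array or without JB replicate 1 (adjusted p = 0.0604 to 0.0805). The rise of Gclc over the 3 BB-related groups (0.48, SE 0.12, adjusted p = 0.0124) was 0.25 without DR+/+ (adjusted p = 0.239). It also ended without F344 replicate 2 (0.0629) or F344lyp replicate 1 (0.0578). The dimmer probe set of Gclc ranged from 4.06 to 4.52 at the 26.6 to 35.44 percentile of its arrays, with a BB against F344 difference of 0.01 (95% confidence interval -0.22 to 0.25). At so low a signal it may not respond, so it neither repeats nor contradicts the brighter one. Cell type markers of DR+/+ differed from those of JB and F344, and their part in the Gclc differences was not tested.

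Gclm, the modifier subunit, moved the other way in DR+/+, at 7.16 and 7.19 there, 7.82 and 8.35 in JB, 7.89 and 8.24 in JBlyp/lyp, 7.63 and 7.76 in F344, and 7.91 and 8.12 in F344lyp. DR+/+ was lowest and did not overlap any group, and JB, JBlyp/lyp and F344lyp overlapped. The share of all genes with such a pattern was not counted. Gclm fell in DR+/+ against JB by 0.91 (difference -0.91, SE 0.20, adjusted p = 0.00648), and its difference from F344 was -0.52 (adjusted p = 0.0692, and 0.01 with those groups fitted alone). For BB against F344 it was -0.08, with an interval of -0.36 to 0.20. Glutathione synthetase, Gss, ranged from 6.61 to 7.38 on the 10 arrays and passed in none of the 8 comparisons, although it did in DR+/+ against F344 with those groups fitted alone (-0.51, adjusted p = 0.028). Its difference for BB against F344 was -0.25 (interval -0.54 to 0.04). The part of the cell type markers that differed in DR+/+ was not tested for Gclm or Gss.

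The reductases that keep thiols reduced were not called in any comparison, except that Txnrd1 passed as higher in DR+/+ than in F344 when those groups were fitted alone (0.46, adjusted p = 0.0216). Gsr ranged from 3.61 to 4.0, at the 18.22 to 26.33 percentile of its arrays, so its probe set carried little signal in any group, and its interval for BB against F344 was -0.13 to 0.29. Txnrd1 had the widest spread between arrays of 1 group. Its brighter probe set gave 8.28 and 8.24 in DR+/+ and 7.69 and 7.90 in F344, but 7.32 and 8.09 in JB, 7.22 and 8.61 in JBlyp/lyp, and 6.88 and 8.16 in F344lyp. In the last 3 groups 1 array, replicate 1 in each, lay far below the other, and the groups overlapped. The within-group SD of 0.65 compares with 0.11 to 0.23 for the other representative probe sets of the list, and the interval for BB against F344, -0.40 to 0.99, leaves room for a difference of nearly 1 log2 unit. The dimmer Txnrd1 probe set ranged from 4.68 to 5.77 and was not called either. Its difference for DR+/+ against F344 was 0.05 (95% confidence interval -0.49 to 0.59). Replicate 1 was again the lower array in JB (4.68 and 5.29), JBlyp/lyp (5.11 and 5.45) and F344lyp (5.20 and 5.77).

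**Figure D3:**
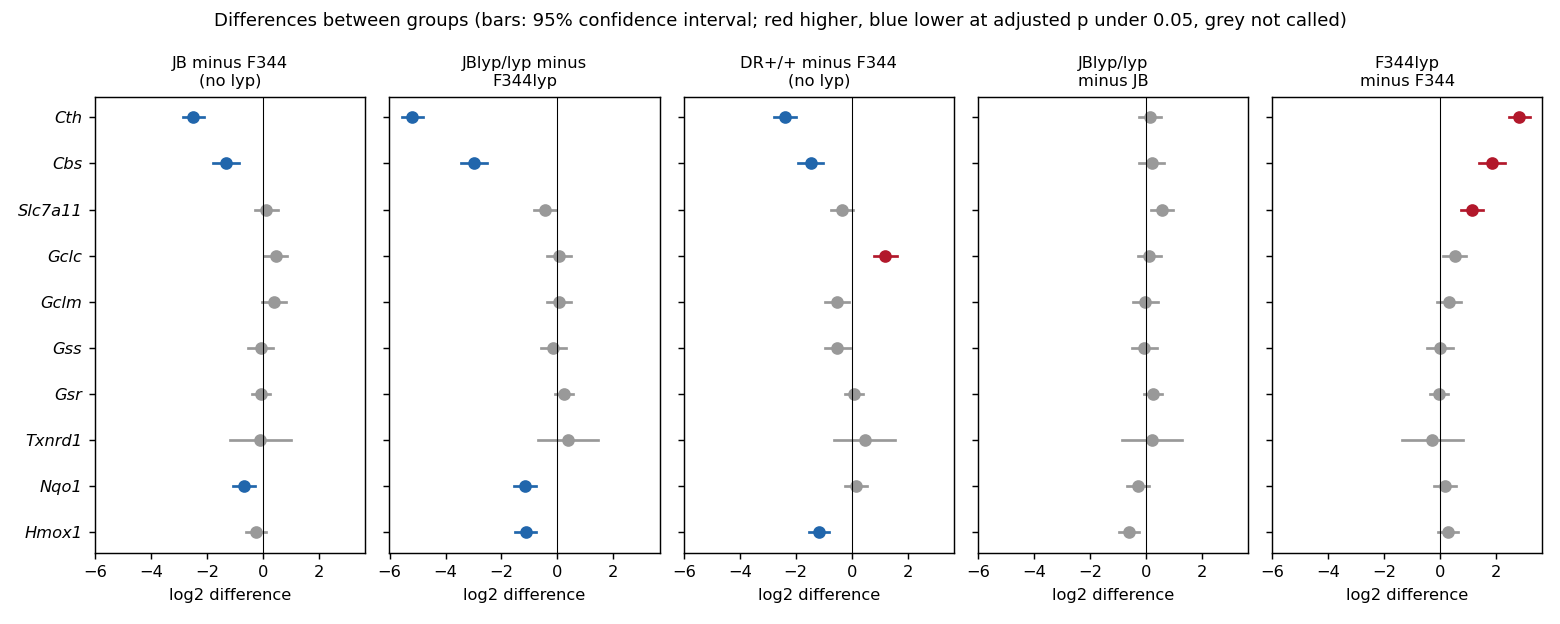
Each panel shows 1 comparison, with the log2 difference of each gene (x axis) as a point and its 95% confidence interval as a bar, red where called higher, blue where called lower and grey where not called. Cth and Cbs are called in all 3 background comparisons and for lyp in F344, and no gene is called for lyp in JB.

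The stress-inducible enzymes split the BB-related groups. Nqo1 stood at 7.62 and 7.52 in DR+/+, 6.93 and 6.48 in JB, 6.39 and 6.46 in JBlyp/lyp, 7.44 and 7.37 in F344, and 7.42 and 7.75 in F344lyp. JB and JBlyp/lyp were low, and DR+/+ lay with the F344 groups. Nqo1 fell by 1.16 in JBlyp/lyp against F344lyp (difference -1.16, SE 0.18, adjusted p = 0.00279) and by 0.70 in JB against F344 (difference -0.70, SE 0.18, adjusted p = 0.0316). The second call ended without JB replicate 2 (-0.48, adjusted p = 0.17), F344 replicate 1 (adjusted p = 0.203) or F344 replicate 2 (0.142), and with the compared groups fitted alone (0.0599). Against JB, DR+/+ was higher by 0.87 (SE 0.18, adjusted p = 0.00466). DR+/+ did not differ from F344 beyond the threshold (0.17, SE 0.18, adjusted p = 0.525). The summed ductal markers were 13.22 to 13.25 in DR+/+, 12.95 to 13.11 in JB and JBlyp/lyp, and 13.12 to 13.38 in the F344 groups. Their part in the Nqo1 differences was not tested.

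Hmox1 stood at 5.18 and 5.61 in DR+/+, 6.28 and 6.31 in JB, 5.67 and 5.73 in JBlyp/lyp, 6.55 and 6.57 in F344, and 6.74 and 6.94 in F344lyp. The 5 groups did not overlap one another, and the share of all genes for this was not counted. All 6 BB-related arrays lay below the F344 and F344lyp arrays, a pattern that 10.6% of all genes show. Hmox1 fell by 1.16 in DR+/+ against F344 (difference -1.16, SE 0.16, adjusted p = 0.000427) and by 1.14 in JBlyp/lyp against F344lyp (difference -1.14, SE 0.16, adjusted p = 0.00194). For JB against F344 the difference was -0.27 (SE 0.16, adjusted p = 0.354). DR+/+ was also lower than JB by 0.90 (difference -0.90, SE 0.16, adjusted p = 0.0024), so Hmox1 and Nqo1 went opposite ways between these groups. Macrophages break down haem with this enzyme, and 17 of 19 measured macrophage markers fell and 0 rose for BB against F344, beside 24.6% of all genes lower and 13.3% higher. In DR+/+ against JB 4 fell and 3 rose (median 0.04), beside 18.4% lower and 15.5% higher. For lyp in JB 0 were called either way, with a median of 0.14. Their log2 sum was 11.09 to 11.16 in DR+/+, 11.09 to 11.58 in JB, 11.28 to 11.76 in JBlyp/lyp, 12.21 to 12.39 in F344 and 12.43 to 12.66 in F344lyp. Their part in the Hmox1 differences was not tested.

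By comparison, the calls were 3 lower and 0 higher of 10 genes for JB against F344 (8.22% of all genes lower and 4.79% higher), namely Cth, Cbs and Nqo1. They were 4 lower and 0 higher for JBlyp/lyp against F344lyp (11.3% lower and 4.7% higher), with Hmox1 added. DR+/+ against F344 had 3 lower, Cth, Cbs and Hmox1, and 1 higher, Gclc (23.8% of all genes lower and 16.3% higher). DR+/+ against JB had 2 lower, Gclm and Hmox1, and 2 higher, Gclc and Nqo1 (18.4% lower and 15.5% higher).

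The effect of the lyp genotype was compared within each background. In F344, Cth rose by 2.83 (SE 0.17, 7.12-fold, adjusted p = 6.52e-05), Cbs by 1.86 (SE 0.20, 3.63-fold, adjusted p = 0.00252) and Slc7a11 by 1.14 (SE 0.18, 2.21-fold, adjusted p = 0.0156). These 3 genes all bring in or make cysteine, and both F344lyp arrays lay above both F344 arrays for each, as in 34.3% of all genes. Slc7a11 started from a low signal, at the 34.35 to 37.28 percentile in F344. The 3 calls of 10 genes stand beside 1.58% of all genes called higher and 0.317% called lower, and 0 of the 10 fell. The Slc7a11 call ended without any 1 of the 4 arrays compared, with the value between 1.06 and 1.23 and the adjusted p between 0.0696 and 0.206, while Cth and Cbs kept theirs. The glutathione synthesis genes were not called, with Gclc at 0.52 (adjusted p = 0.217, and 0.0478 with the compared groups fitted alone), Gclm at 0.32 (adjusted p = 0.477) and Gss at -0.01 (adjusted p = 0.99). Of the acinar markers 6 of 28 rose and 0 fell, with a median of 0.55. Their part in the rise of Cth and Cbs was not tested.

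In JB, 0 of the 10 genes passed for lyp by limma, where 0.00703% of all genes were called higher and 0% lower. At an unadjusted p under 0.05 there were 2, Slc7a11, higher by 0.57 (SE 0.18), and Hmox1, lower at -0.59 (SE 0.16), with adjusted p of 0.619 and 0.535. Both JBlyp/lyp arrays lay above both JB arrays for Slc7a11, as in 14.9% of all genes, and below them for Hmox1, as in 12.6%. The interval for Cbs in JB was -0.25 to 0.66, around a difference of 0.20. The difference between the lyp effects was tested directly. It was -2.69 for Cth (SE 0.24, adjusted p = 0.00232), the single call of the 10 genes (0.429% of all genes lower and 0.0492% higher). Both JB groups sat near the array floor for Cth, where a lower level in JBlyp/lyp could not show and a small rise might not, so this value largely repeats the rise of 2.83 in F344. For Cbs it was -1.66 (SE 0.29, adjusted p = 0.0602), and it passed without JBlyp/lyp replicate 2 (-1.92, adjusted p = 0.018). For Slc7a11 it was -0.57 (adjusted p = 0.638), so the lyp effect on the importer was not shown to differ between backgrounds.

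The genes most like each member were sought among all genes by the Pearson correlation over the 10 arrays, which mixes group steps with differences between arrays of a group. Cth was nearest to the glutathione transferase gene Gstm2 (r = 0.997), the serine protease gene Hpn (0.992) and the water channel gene Aqp8 (0.991). Cbs was nearest to Aqp8 (0.983), the gap junction gene Gjb2 (0.983) and the polyamine oxidase gene Paox (0.983). Aqp8 stood at group means of 4.63 in DR+/+, 5.07 in JB, 5.09 in JBlyp/lyp, 6.67 in F344 and 9.35 in F344lyp. Slc7a11 was nearest to Xpot (0.978), which exports tRNA from the nucleus, Gnpnat1 (0.963), an enzyme of amino sugar synthesis, and Ap3b1 (0.955). Gclc was nearest to Ivns1abp (0.98), Trim16 (0.972) and Fermt2 (0.971), and Gclm to Cpeb4 (0.979), Atosa (0.979) and Matk (0.971). Nqo1 was nearest to Evc (0.979), the gluconeogenic enzyme gene Fbp1 (0.978) and Stat2 (0.973). Hmox1 was nearest to Scnn1a (0.948), the pancreatic lipase-related gene Pnliprp2 (0.935) and Coq4 (0.934). Gss was nearest to Rpl35 (0.973), Ppp1ca (0.96) and Zswim8 (0.959), Txnrd1 to Hmgb1 (0.938), Hif1a (0.932) and Rac1 (0.928), and Gsr to Ppm1h (0.87), Hapstr1 (0.857) and Prl7b1 (0.845). For Gss, Txnrd1 and Gsr the SD within groups (0.23, 0.65 and 0.11) exceeded that between group means (0.21, 0.28 and 0.10). Their nearest genes therefore also follow differences between arrays of a group.

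**Figure D4:**
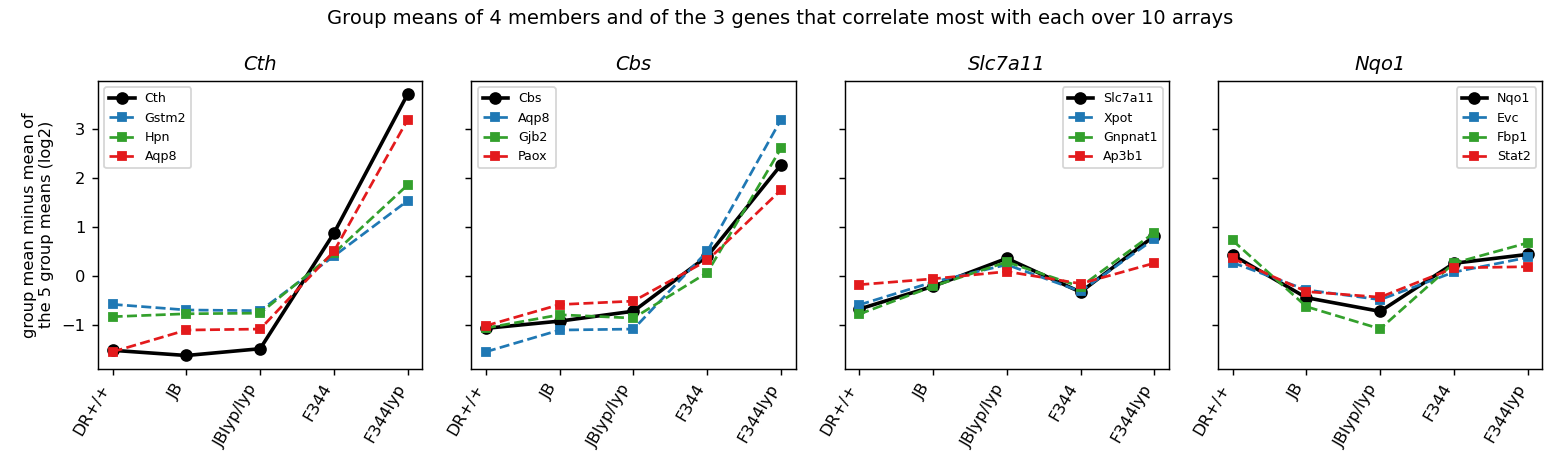
Each panel plots group means minus the mean of the 5 group means (y axis, log2) for 1 gene (black) and for the 3 genes with the highest Pearson correlation with it over the 10 arrays (dashed). The genes nearest to Cth and Cbs rise in F344 and again in F344lyp, as Aqp8 does from 6.67 to 9.35.

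The surrounding pathways were taken as lists that leave out the 10 genes. The same background of 24.6% of genes lower and 13.3% higher applies to their counts for BB against F344. For their counts for lyp in F344 the background is 1.58% of all genes higher and 0.317% lower. The genes named are those with the largest difference in that comparison, which holds the F344lyp arrays, so their lyp values in F344 share arrays with it and are given beside it as values alone. Of 23 genes of the sulfur amino acid cycle, 10 fell and 2 rose for BB against F344, with a median of -0.15. They include Gnmt, which uses up the methyl donor S-adenosylmethionine (-2.19, SE 0.14), the sulfur transferase gene Tst (-1.54, SE 0.11) and Ahcy, which yields the homocysteine that Cbs uses (-1.54, SE 0.09). For lyp in F344, 4 of the 23 rose and 0 fell, and Gnmt rose by 1.62 (adjusted p = 0.0061), Tst by 0.99 (0.0206) and Ahcy by 0.96 (0.00805). Of 14 cysteine and glutamate transport genes, 6 fell and 2 rose for BB against F344, and 4 rose for lyp in F344. The glutaminase gene Gls2 was lower in BB (-2.10, SE 0.15) and rose by 2.05 in F344lyp (adjusted p = 0.00309). Slc7a5, a light chain partner of Slc3a2 in amino acid transport, had a difference of -1.77 (SE 0.13), with a group mean of 4.69 in DR+/+ and 7.53 to 8.68 in the other groups. The glutamate transporter gene Slc1a3 was lower at -1.21 (SE 0.09), although DR+/+ at 6.93 lay above F344 at 6.24.

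Of 33 genes of glutathione turnover and thiol repair, 21 fell and 1 rose for BB against F344, with a median of -0.56. Ggt1, which removes its glutamyl group, was at -2.04 (SE 0.13), Anpep, a peptidase, at -1.76 (SE 0.12), and Dpep1, a dipeptidase that splits cysteinylglycine, at -1.56 (SE 0.14). Ggt5, another glutathione-cleaving enzyme of the list, named after its value was seen, did not pass (-0.20, adjusted p = 0.467). For lyp in F344 the values were 1.75 for Ggt1, 1.44 for Anpep and 1.88 for Dpep1 (adjusted p = 0.00309, 0.00486 and 0.00309), and 3 of the 33 rose and 0 fell. The 27 of 28 acinar markers that fell for BB against F344, at a median of -2.31, moved with these lists, and their part was not tested.

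Among 16 Nrf2 regulators 4 fell and 2 rose for BB against F344, with a median of 0.03, close to the -0.04 of all genes. Gsk3b, a kinase that marks Nrf2 for degradation, was higher (1.37, SE 0.23) through JB at a mean of 7.82 and JBlyp/lyp at 7.67, with DR+/+ at 6.19 beside F344 at 6.04. Lower were the mitochondrial phosphatase gene Pgam5 (-0.99, SE 0.09) and Park7, which protects Nrf2 (-0.84, SE 0.11). Park7 means were 8.51 in DR+/+, 9.34 in JB and 9.82 in JBlyp/lyp. They were 10.22 in F344 and 9.91 in F344lyp, and the arrays of the BB-related and F344 sides overlapped. Nfe2l2, which encodes Nrf2, and Keap1 were added after their values were seen because they define the pathway. For BB against F344, Nfe2l2 stood at 0.08 (SE 0.09, adjusted p = 0.565) and Keap1 at -0.15 (SE 0.15, adjusted p = 0.469). The Nfe2l2 value pools unlike groups, with -0.23 for JB against F344 (adjusted p = 0.355) and -0.40 for JBlyp/lyp against F344lyp (adjusted p = 0.0886). Nfe2l2 was higher in DR+/+ than in F344 by 1.01 (SE 0.14, adjusted p = 0.000423) and than in JB by 1.24 (SE 0.14, adjusted p = 0.000149). In DR+/+ against F344, 12 of 12 beta cell markers fell, and 13 of 16 stellate and fibroblast markers rose and 1 fell. Of all genes, 23.8% were lower and 16.3% higher there. The part of these cell types in the Nfe2l2 differences was not tested. Of 35 other Nrf2 targets 18 fell and 0 rose for BB against F344, with a median of -0.41, among them the quinone reductase gene Nqo2 (-1.38, SE 0.18), the aldehyde reductase gene Akr7a3 (-1.17, SE 0.12) and the glutathione peroxidase gene Gpx2 (-1.09, SE 0.23). For Gpx2 and Akr7a3 the groups split here too. DR+/+ had mean signals of 8.46 and 5.72, beside 8.06 and 5.75 in F344, and the lower values came from JB and JBlyp/lyp. For Nqo2 the DR+/+ mean of 7.34 also lay below the 7.90 of F344, with JB at 6.25 and JBlyp/lyp at 6.18. In DR+/+ against F344 5 rose and 6 fell (median -0.06), beside 16.3% of all genes higher and 23.8% lower. In JBlyp/lyp against F344lyp 0 rose and 16 fell (median -0.47), beside 4.7% higher and 11.3% lower.

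Of 29 Atf4 targets, 18 fell and 3 rose for BB against F344, with a median of -0.45, and for lyp in F344 1 rose and 1 fell. In DR+/+ against F344 16 fell and 1 rose (median -0.85), beside 23.8% of all genes lower and 16.3% higher. In JB against F344 5 fell and 3 rose (median -0.26), beside 8.22% lower and 4.79% higher. In JBlyp/lyp against F344lyp 8 fell and 1 rose (median -0.36), beside 11.3% lower and 4.7% higher. Atf4 itself, named after its values were seen, fell in DR+/+ against F344 (-1.70, SE 0.21, adjusted p = 0.000205) and was not called for JB against F344 (-0.28, adjusted p = 0.472) or JBlyp/lyp against F344lyp (-0.57, adjusted p = 0.103). The stress gene Nupr1 was lower at -2.61 (SE 0.15), and the serine synthesis genes Phgdh and Psph, which make the serine that Cbs uses, stood at -1.91 (SE 0.14) and -1.58 (SE 0.12). For lyp in F344 Nupr1 rose by 1.21 (adjusted p = 0.0368), while Phgdh was at 1.05 (adjusted p = 0.0535) and Psph at 0.54 (adjusted p = 0.21). Nupr1 is also known from acinar cells under stress. The part of the cell types whose markers differed in DR+/+ was not tested for Atf4 or its targets.

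**Figure D5:**
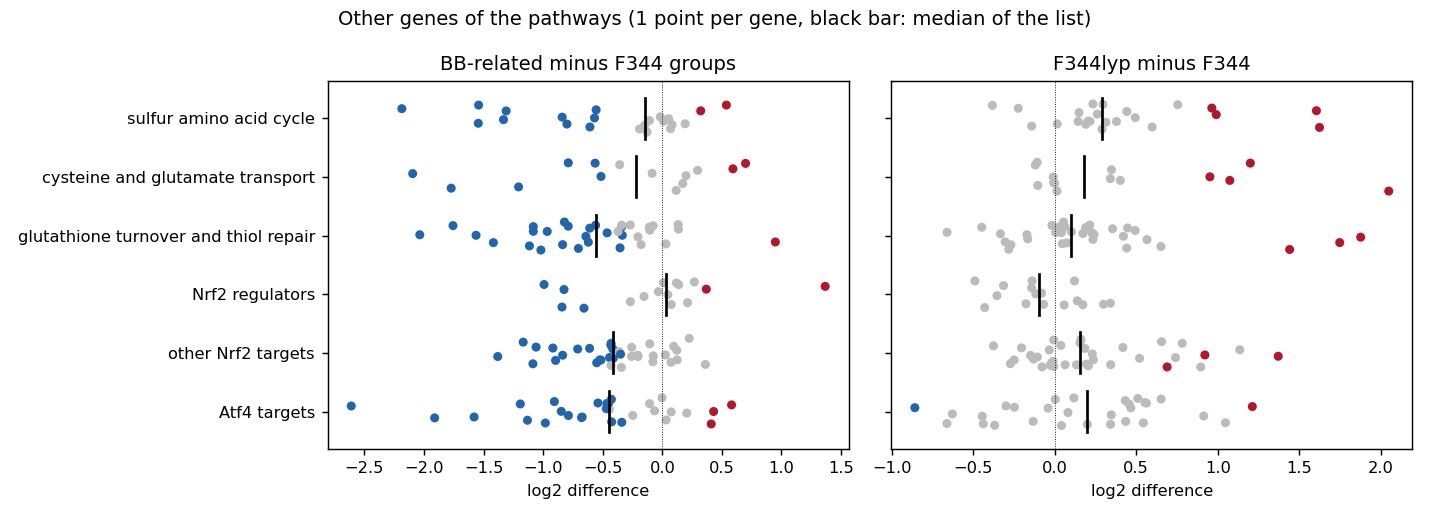
Each point is 1 gene of a pathway list (rows), placed by its log2 difference (x axis) for the BB-related against the F344 groups (left) and for F344lyp against F344 (right), red where called higher, blue where called lower and grey otherwise, with a black bar at the list's median. The turnover list lies at a median of -0.56 on the left and 0.10 on the right, and the Nrf2 regulators at 0.03 and -0.10.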

How the data were processed

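Expression was measured on 10 Affymetrix arrays of rat islet RNA, 2 for each of 5 groups. The submitters' processing notes name GCOS and RMA, with no version, and the table deposited by the authors holds log2 intensities of all probe sets on each array. Raw scans were not analysed here, and the number of arrays limits the precision. After 57 control probe sets were set aside, limma 3.58.1 (R 4.3.3) fitted group means to 31042 probe sets, and 8 contrasts were tested two-sided (eBayes, Benjamini-Hochberg over all probe sets, threshold 0.05, no filter). It was tested on simulated data. Intervals are 95% intervals of the moderated fit. The labels call the arrays biological replicates without saying how, so the p-values cover the spread among these arrays, which may be technical.

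Symbols came from the array annotation, with 1 symbol for 20826 probe sets, and promoter sequences from RefSeq (GRCr8). The members and lists were chosen with earlier results of these data known, so list counts are not independent evidence, and no list was tested. Genes named are the members, up to 3 called genes per list with the largest difference for BB against F344, and the 3 genes nearest to each member. The alternatives were a replicate or strain block, 2 group means, other scalings, a filter on dim probe sets, subsets of groups, each array left out, mean of probe sets, a fold minimum, a Gapdh covariate and another eBayes. Leaving out F344lyp was chosen after seeing the data. Plots were made in Python 3.11.15 (matplotlib 3.10.9).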

Additional observations from a re-analysis of the deposited data

Results flagged for a closer look

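The lyp effect on Cth differed between the backgrounds by -2.69 (SE 0.24, limma adjusted p = 0.00232), since Cth rose by 2.83 in F344 and stood at 0.14 (SE 0.17) in JB, where the signal lay near the floor of the arrays, so the value largely repeats the rise in F344. The interaction was tested over all probe sets, and Cth was the single called gene among the 10.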

How the results depend on the processing

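Of 25 calls of the 10 genes over the 8 comparisons, 25 held with array medians centred, with quantile normalization, with the replicate block and with a trended robust eBayes. The dim filter removed Cth, Gsr and Slc7a11 from the test and left 17 of 17 calls. With the Gapdh covariate 6 calls held: Cth for JBlyp/lyp against F344lyp (-5.24, adjusted p = 0.00249) and for lyp in F344 (2.85, 0.00169), Cbs for lyp in F344 (1.84, 0.0269), and Gclm, Nqo1 and Hmox1 for DR+/+ against JB. Values called in neither setting changed sign 48 times and carry no direction.

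For BB against F344 (5 lower, 1 higher) the counts were 3 and 0 with 2 group means, 2 and 0 with the strain as a random block, 3 lower with dim probe sets left out, 2 and 0 with a log2 difference of at least 1, 0 and 0 with the Gapdh covariate, and 0 higher without DR+/+ or with the mean of a gene's probe sets. Without F344lyp, Slc7a11 turned to 0.15. For lyp in F344 (3 higher) it was 1 with dim probe sets left out. For DR+/+ against F344 (3 lower, 1 higher) it was 5 and 2 with the compared groups alone and 0 and 0 with the covariate. For DR+/+ against JB (2 and 2) it was 0 and 0 with the fold minimum and 1 higher with the covariate. With the covariate the lower counts were 0 for JB against F344 and 1 for JBlyp/lyp against F344lyp. For the difference between lyp effects (1 lower) the count was 0 with dim probe sets left out or the covariate and 2 with the mean of a gene's probe sets.

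With single arrays left out, BB against F344 had 4 to 5 lower and 0 to 1 higher, JB against F344 2 to 3 lower, JBlyp/lyp against F344lyp 4 lower, DR+/+ against F344 3 to 5 lower and 1 higher, DR+/+ against JB 2 to 3 lower and 1 to 2 higher, lyp in F344 2 to 3 higher, lyp in JB 0 either way, and the difference between lyp effects 1 to 2 lower. The replicate numbers are not stated to pair arrays, and deviations of same-numbered arrays correlated at -0.10 to 0.65. With the replicate block the fall of Gclm in DR+/+ against F344 was called as well (-0.52, adjusted p = 0.0248), and all probe sets called for lyp in F344 went from 468 to 745.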
